A study of Homo sapiens with 36 samples.

Results

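The response of H3K27ac to 14 days of trametinib was set against the response to 24 h of trametinib in NEG cells, region by region. SUM-229PE is a triple-negative breast cancer cell line that was derived from a pleural effusion. NEG cells are the fraction that lacked both EpCAM and CD49f in flow cytometric sorting, and POS cells are the fraction that carried both. Acetylation of lysine 27 on histone H3 was measured by ChIP-seq, with reads counted by the authors in fixed windows of 1001 bases. The members were chosen by position alone: a window of the 24 h table and a window of the day 14 table were paired where each covered at least 50% of the other. This gave 19046 regions matched 1 to 1, which are 35.0% of the 54454 regions of the 24 h table and 67.4% of the 28239 regions of the day 14 table. All 19046 passed the filter on low counts, and no measured value entered the choice of members beyond the presence of a region in both tables.

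The 8 libraries fall into 4 groups of 2, all from NEG cells of passages 15 to 18. The acute arm holds cells given DMSO, the solvent control, and cells given 30 nM trametinib for 24 h. The chronic arm holds cells labelled day 0 (D0), whose count table calls them a DMSO control, and cells labelled day 14 (D14) of 10 nM trametinib. All groups lack EpCAM and CD49f at the sort, and no group kept for 14 days without the drug was analysed here. Dose, length of treatment, days in culture and the arm in which the cells were collected therefore cannot be told apart. The labels do not say that replicates came from separate cultures, so every p-value measures the spread between these libraries, which may be technical.

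Trametinib inhibits the kinases MEK1 and MEK2 and so blocks the activation of ERK, the last kinase of the RAS to RAF to MEK cascade that carries growth factor signals to the nucleus. H3K27ac is laid down by the acetyltransferases p300 and CBP and marks active promoters and enhancers, so its gain or loss at a region is a readout of regulatory activity there. JUNB is a subunit of AP-1, a family of transcription factors that ERK signalling feeds into, and the same line has JUNB binding data from untreated NEG and POS cells. The regions are given by their hg19 coordinates in the 24 h table. They were not assigned to genes here, and the sorting markers were not checked in the chromatin data.

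Matched regions held 1313616 and 1450411 counts in the 2 D14 libraries, 1852642 and 2561624 in the D0 libraries, 2728751 and 2884221 in the 24 h trametinib libraries, and 3053187 and 3140499 in the acute DMSO libraries. The chronic arm was thus the shallower one. In a principal component analysis of log2 CPM (counts scaled to the same total in matched regions for each library), the first component took 61.2% of the variance. It placed all 4 control libraries between 41.7 and 45.5 and all 4 treated libraries between -49.5 and -35.6. The second component took 22.5% of the variance and separated the treated groups from each other, with the 24 h libraries at -40.3 and -38.8 and the D14 libraries at 33.9 and 34.1. The controls of both arms lay together on it, between 2.05 and 3.17.

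**Figure D1:**
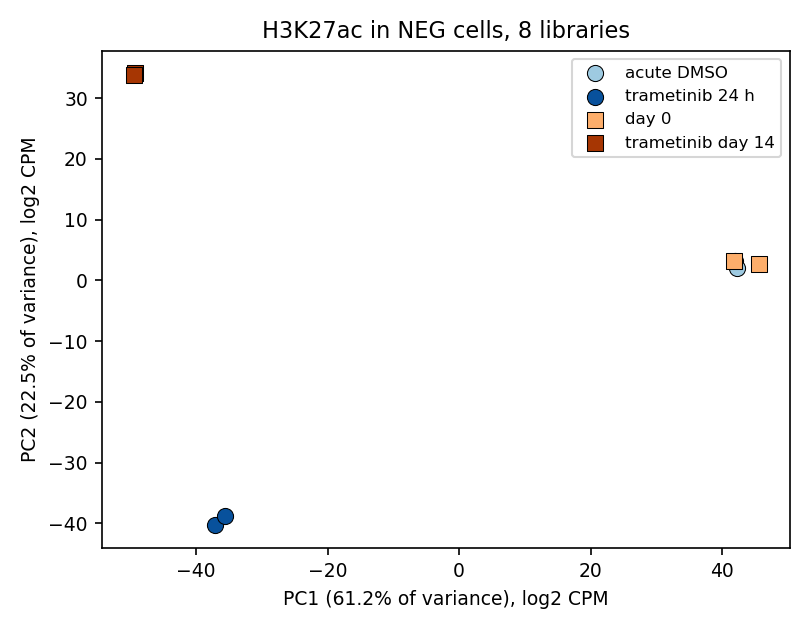
Principal components of H3K27ac log2 CPM over 19046 matched regions in the 8 NEG libraries; each point is 1 library, circles are the acute arm and squares the chronic arm. The 4 control libraries fall together on both axes, while the 24 h and D14 libraries share the negative side of the first axis and stand at opposite ends of the second.

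The response at D14 was the log2 ratio of D14 over D0, the response at 24 h was the log2 ratio of 24 h trametinib over acute DMSO, and their difference was tested in 1 model with arm and treatment as factors. The test was the quasi-likelihood test of edgeR, adjusted by Benjamini-Hochberg over all 19046 regions, and a region was called where its adjusted p was below 0.05. The difference was called at 5755 regions (30.2%). The D14 response was the higher of the pair at 2851 regions (15%) and the lower at 2904 (15.2%). The difference was 2-fold or more at 1145 of the regions called higher and at 724 of those called lower. Calls higher and lower were near equal under the scaling used, at 49.5% higher. The share of calls that were higher was 57.1% when libraries were scaled by their totals alone and 63.1% with the scaling factors of each full table, which moved the median difference of all regions to 0.11 on the log2 scale. The balance between the directions thus depends on the scaling. DESeq2, with another estimate of the spread, called 2562 regions, all of them among the 5755.

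Each response on its own reached more regions than the difference between them. The 24 h response was called at 10862 regions (57%), with 5643 gains (29.6%) and 5219 losses (27.4%). The D14 response was called at 9430 regions (49.5%), with 4753 gains (25%) and 4677 losses (24.6%). Large gains were more numerous at D14, with 1661 called gains of 2-fold or more against 1150 at 24 h, while large losses numbered 1246 at D14 and 1464 at 24 h. The order of the total counts was reversed at equal depth: with all 8 libraries thinned to the depth of the shallowest, 8197 regions were called at 24 h and 8692 at D14.

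Most of the difference lay in the treated cells and not in the controls. D14 and 24 h trametinib cells, compared directly, differed at 7940 regions (41.7%), 3910 higher (20.5%) and 4030 lower (21.2%) at D14, and the SD of their log2 ratio over regions was 0.55. D0 and acute DMSO cells differed at 1100 regions (5.78%), 488 higher (2.56%) and 612 lower (3.21%) at D0, with an SD of 0.26, and only 10 regions called higher and 27 called lower reached 2-fold. Among the 2851 regions with a higher D14 response the median difference of responses was 0.91, of which the treated groups gave 0.75 and the controls -0.17, since a lower D0 level raises the D14 ratio. Among the 2904 regions with a lower D14 response the median difference was -0.78, with -0.67 in the treated groups and 0.11 in the controls. Controls gave over 50% of the difference at 12.7% of the regions called higher and at 9.81% of those called lower. The comparison of the controls was itself sensitive to the matching and to single libraries. It was called at 2.57% of regions whose paired windows started within 50 bases of each other and at 12.9% of those whose starts lay 201 to 500 bases apart. The share called for the difference of responses was 30.7% and 29.9% in the same offset groups. The count of 1100 was 411 without D0 replicate 1, 446 without acute DMSO replicate 1, 558 without D0 replicate 2, 624 without acute DMSO replicate 2 and 4715 with the scaling factors of each full table.

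**Figure D2:**
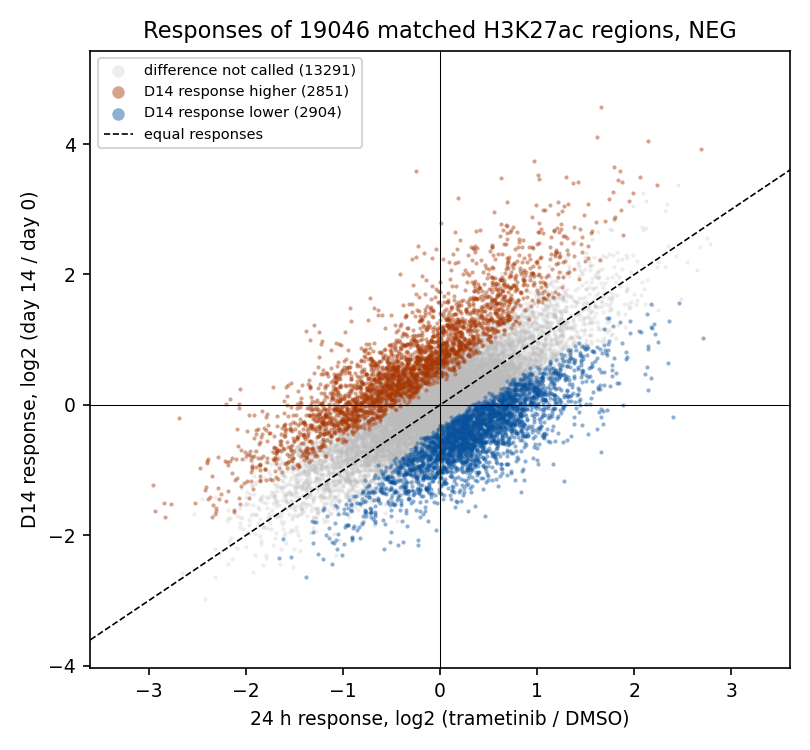
Response at 24 h (x axis) and at D14 (y axis), both as log2 ratios of treated over control, for 19046 matched regions in NEG cells; each point is 1 region, coloured by the call of the difference, and the dashed line marks equal responses. Regions called higher at D14 (2851) lie above the line and those called lower (2904) below it, and both sets cross the zero of each axis.

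A change of 2-fold or more at 24 h was in most cases called again at D14 in the same direction. Of the 5643 regions that gained H3K27ac at 24 h, 2852 (50.5%) were also called as gains at D14, 2365 (41.9%) were not called and 426 (7.55%) were called as losses. Of the 1150 that gained 2-fold or more at 24 h, 903 (78.5%) were called as gains at D14 and 10 as losses. Losses at 24 h gave similar shares, with 2850 of 5219 (54.6%) lost again at D14, 2100 (40.2%) not called and 269 (5.15%) turned into gains. Of the 1464 losses of 2-fold or more, 1041 (71.1%) were lost again and 29 were gains. These shares stand against 25% of all regions called as gains and 24.6% called as losses at D14. The call depends on depth and on the size of the change, and no test of the difference between these shares was made.

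Read from the D14 side, 2852 of the 4753 gains (60.0%) and 2850 of the 4677 losses (60.9%) had been called in the same direction at 24 h. For changes of 2-fold or more at D14 these shares were 1227 of 1661 gains (73.9%) and 996 of 1246 losses (79.9%). With regions sorted into 10 equal groups by their 24 h response, the group with the deepest losses had a median of -1.19 at 24 h and -0.78 at D14, with quartiles of -1.18 and -0.38. The group with the highest gains had a median of 1.06 at 24 h and 0.84 at D14, with quartiles of 0.38 and 1.41. Groups picked by the 24 h values are extreme partly through the error of those values, so a D14 median nearer 0 is no sign by itself of a smaller response.

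Regions were then sorted by the calls of both responses and of their difference. The names that follow describe calls in the 2 arms, which differ in dose as well as in time, and not a course followed in 1 culture. Since the calls define these classes, their medians are descriptions. The most common classes with a call were those in which both arms moved alike: 2174 regions were gained in both with the difference not called, at medians of 0.76 and 0.81, and 2256 were lost in both, at medians of -0.81 and -0.81. For 409 of the shared gains and 420 of the shared losses the 95% interval of the difference lay within 0.5 log2 units of 0, so for these regions the data bound the difference and do not merely miss it. A further 4999 regions had no call of any kind.

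Among regions with the difference called, transient gains, called at 24 h and not at D14, numbered 1045, with a median of 0.68 at 24 h and -0.08 at D14. Transient losses numbered 851, with medians of -0.82 and 0.07. Delayed gains, called only at D14, numbered 902, with medians of 0.00 at 24 h and 0.90 at D14, and delayed losses numbered 838, with medians of 0.05 and -0.72. Gains that were enlarged at D14 numbered 493 and went from a median of 0.69 to 1.73. Losses that were enlarged numbered 325 and went from -0.49 to -1.24. Reduced gains numbered 185, at medians of 1.30 and 0.58, and reduced losses numbered 269, at medians of -1.52 and -0.70.

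Changes of direction were fewer than the transient and the delayed classes. Gains that turned into losses numbered 426, with a median response of 0.41 at 24 h and -0.56 at D14. Losses that turned into gains numbered 269, with medians of -0.55 and 0.59. These 2 counts rest on 3 calls each and moved with the settings: DESeq2 gave 148 and 80, and thinning to equal depth gave 244 and 163. Gains turned into losses numbered 281 without D14 replicate 2 and 268 with the scaling factors of each full table. The controls differed at 14.3% of the regions whose gain turned into a loss and at 15.2% of those whose loss turned into a gain, against 5.78% of all regions.

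**Figure D3:**
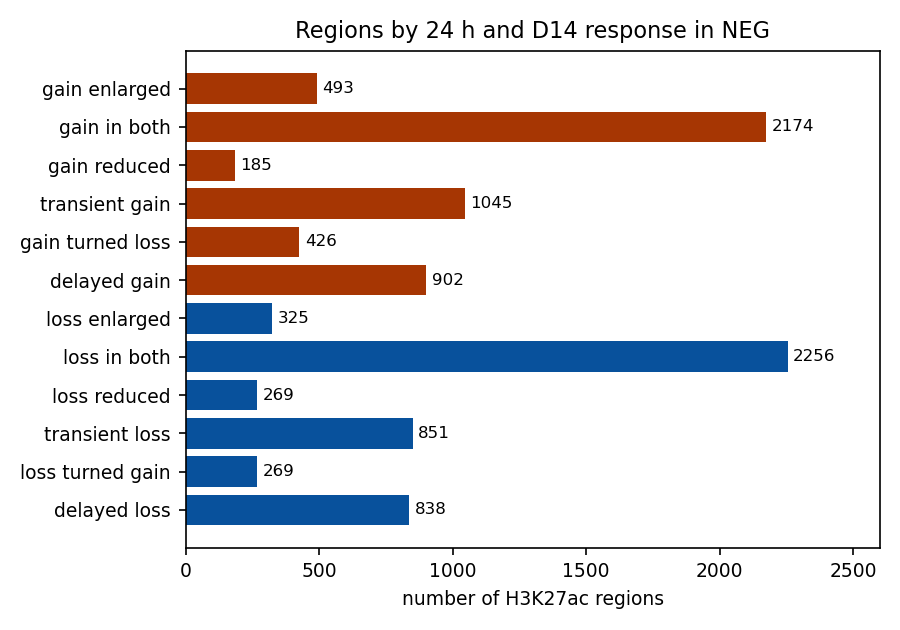
Number of matched regions (x axis) in each class of response in NEG cells, by the calls at 24 h, at D14 and of their difference. Regions gained in both arms (2174) and lost in both (2256) are the most numerous of the 12 classes drawn, and those that changed direction (426 and 269) are among the fewer.

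The level of H3K27ac before treatment went with the direction of the difference. Regions were split into 5 equal groups by their mean level over the 4 control libraries, with group medians from 16.3 CPM to 112 CPM. In the weakest group 16.1% of regions had a higher D14 response and 4.96% a lower one. In the strongest group the shares were 12.5% and 31.1%. The share with a D14 loss rose from 5.14% in the weakest group to 51.5% in the strongest, and the share with a D14 gain fell from 39.0% to 12.4%. At 24 h the slope was shallower on the side of gains, from 35.7% to 26.7%, and losses went from 10.8% to 41.4%. The median difference of responses moved from 0.18 in the weakest group to -0.16 in the strongest. Weak regions were measured less precisely, with a median standard error of the difference of 0.37 against 0.16, and the control libraries that set the level also enter both responses. The windows of each table were joined over treated and control libraries, so a region weak in the controls could enter through the treated ones. Entry of that kind favours gains over losses among weak regions, and its part in these shares was not tested. Enlarged losses drew most on strong regions, with a median control level of 101 CPM, and enlarged gains on weak ones, with a median of 22.8 CPM against 36.3 CPM over all regions.

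JUNB sites of untreated cells were counted in a region where at least 50% of the 201-base site lay inside it. Such a site was present in 16822 of the 19046 regions (88.3%). It was present in 89.9% of regions with a higher D14 response, in 89.9% of those with a lower one and in 87.6% of those not called. The share rose with the level before treatment, from 73.1% in the weakest group to 95% in the strongest. Within groups of level the shares for a higher and a lower D14 response were 92.4% against 81.6% in the second group, 96.3% against 89.1% in the third and 96.7% against 91.6% in the fourth. Over all regions of these groups the shares were 87.9%, 91.7% and 93.9%, between the values for higher and lower. In the first group the shares were 70.6% and 69.8%, and in the fifth 95.6% and 94.6%.

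By class, 97.8% of the losses turned into gains, 95.4% of the transient losses, 94.9% of the losses in both arms and 95.7% of the enlarged losses held a JUNB site. Their median control levels were 43.2, 42.0, 56.3 and 101 CPM in that order, against 36.3 CPM over all regions. Of the enlarged losses 72.3% lay in the strongest group of level, where 95% of all regions held a site. The classes were not compared at equal level. Among the enlarged gains the share was 75.5%, beside their low control level. JUNB binding at the leading site of a region was compared between untreated POS and NEG cells with the same edgeR test over 141580 sites, of which 28.5% were called higher in POS and 29.4% higher in NEG. At the leading sites of the matched regions 47.1% were higher in NEG and 11.5% higher in POS, with a median log2 ratio of POS over NEG of -0.57. These regions were found in NEG cells. The ratio was below 0 for the difference of responses in both directions, with medians of -0.56 where D14 was higher and -0.67 where it was lower.

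The regions with the largest differences were taken by a rule of call, level, separation of the libraries and distance from each other, and are described in the order of size. Calls in which the 4 possible treated-minus-control differences of one arm did not overlap the 4 of the other numbered 2804 higher and 2874 lower, and the same separation was seen at 51.8% of all tested regions. The 8 regions named as higher had differences of 1.98 to 2.5 on the log2 scale, and the highest adjusted p among them was 1.8e-12 by the quasi-likelihood test of edgeR, adjusted by Benjamini-Hochberg. All 8 held a JUNB site, beside 88.3% of all regions. The site was higher in NEG than in POS at 6 and higher in POS at none, beside 47.1% and 11.5% over all regions with a site. The share with a site rose with level, and the rule asks for at least the median level, so nothing is read from these counts. The controls differed at 4 of the 8, against 5.78% of all regions.

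The region at chr4:106136736-106137737 had the largest difference among the regions this rule names. Larger differences, up to 3.83 and down to -2.58, were called at regions outside the rule. It stood at 60.4 and 50.2 CPM in acute DMSO cells, 50.4 and 48 after 24 h, 24.6 and 32.7 at D0, and 140 and 143 at D14. Both D14 libraries were far above the other 6, which overlapped between DMSO and 24 h. Its response was -0.17 ± 0.13 (SE, 2 libraries a group) at 24 h and 2.33 ± 0.15 at D14, a difference of 2.5 ± 0.20. D0 was below acute DMSO by a log2 ratio of -0.98, so part of this difference lies in the controls. The paired windows were offset by 227 bases, which the levels across arms carry.

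The region at chr2:68098514-68099515 had a deep loss in the acute arm and a small called gain in the chronic arm. Its level was 164 and 154 CPM in acute DMSO cells and 40.1 and 35.8 after 24 h, against 174 and 147 at D0 and 182 and 200 at D14. The 2 libraries of 24 h trametinib were the low ones, and the 6 others lay between 147 and 200. The response was -2.06 ± 0.12 at 24 h and 0.24 ± 0.10 at D14, a difference of 2.30 ± 0.16, and the controls differed by 0.03. Its JUNB site had 32.5 CPM in untreated NEG cells and 2.61 in POS cells.

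At chr16:11098666-11099667 the gain was found at D14. The level was 82.4 and 89.3 CPM in acute DMSO cells, 94.8 and 96.3 after 24 h, 55.5 and 49.9 at D0, and 233 and 247 at D14. The D14 libraries stood above all others, and the difference of responses was 2.02 ± 0.16 with the controls apart by -0.69. The region at chr8:67383443-67384444 had the same form from a lower level, with 31.5 and 21.1 CPM, then 33.4 and 30.6, then 21.0 and 26.8, and 117 and 116 at D14, in the same order of groups. Here the controls overlapped, and the difference was 2.02 ± 0.24. At chr5:156811275-156812276 the level was 43.3 and 39.4 CPM in acute DMSO cells, 27.7 and 25.5 after 24 h, 61.8 and 64.4 at D0, and 165 and 163 at D14. In this case D0 was above acute DMSO, by 0.61, and the difference of 2.01 ± 0.19 was found against that shift. The paired windows of the regions of this paragraph were offset by 398, 390 and 488 bases, in the order given. Their levels compared across arms, and the control shifts, carry that offset.

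Of the 8, 5 were called as losses at 24 h and as gains at D14: those at chr2:68098514-68099515 and chr5:156811275-156812276, and 3 more. In the authors' deposited DESeq2 results both responses had an adjusted p below 0.05 only at the 3 described next. There the D14 gain at chr2:68098514-68099515 had an adjusted p of 0.51. The 24 h loss at chr5:156811275-156812276 had one of 0.091. The region at chr5:138180823-138181824 went from 57.8 and 56.6 CPM to 24.5 and 24.7 in the acute arm and from 36.8 and 39.2 to 76.5 and 73.5 in the chronic arm. Treated and control libraries did not overlap in either arm, and the order was opposite. At chr22:27872112-27873113 the acute arm went from 47.9 and 49.6 CPM to 19.5 and 26.9, and the chronic arm from 36.4 and 37.0 to 74.3 and 67.5. At chr8:97137740-97138741 the acute arm went from 85.0 and 88.9 CPM to 40.5 and 43.9, and the chronic arm from 81.6 and 74.0 to 151 and 149. The controls of this region were close, at a log2 ratio of -0.15 for D0 over acute DMSO, and its JUNB site had 16.1 CPM in NEG and 1.1 in POS cells. Another region of this kind, chr1:240473424-240474425, went from 81.7 and 80.6 CPM to 41.9 and 32.5 in the acute arm and from 40.8 and 33.3 to 68.3 and 66.1 in the chronic arm. Its D0 level was as low as its 24 h level, with the controls apart by -1.11 and the paired windows offset by 487 bases, and its D14 libraries lay below both acute DMSO libraries. Its D14 gain had an adjusted p of 0.068 in the deposited DESeq2 results.

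The 8 regions named as lower had differences of -2.44 to -1.92, and the highest adjusted p among them was 1.4e-11 in the same edgeR test, adjusted by Benjamini-Hochberg. Of these, 7 held a JUNB site, beside 88.3% of all regions. The site was higher in NEG at 5 and higher in POS at none, beside 47.1% and 11.5% over all regions with a site. The controls differed at 1 of the 8. All 8 had a positive log2 ratio at 24 h and a negative one at D14, at -1.70 to -0.36. In the authors' deposited DESeq2 results both responses had an adjusted p below 0.05 at only some of these 8. The exceptions are given with the regions.

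The region at chr11:61311469-61312470 led this set. It stood at 42.3 and 35.8 CPM in acute DMSO cells, 88.8 and 100 after 24 h, 42.0 and 47.8 at D0, and 20 and 19.6 at D14. The controls of both arms overlapped, the 24 h libraries were the highest and the D14 libraries the lowest. The response was 1.27 ± 0.12 at 24 h and -1.17 ± 0.21 at D14, a difference of -2.44 ± 0.24. The region at chr21:23908057-23909058 had the same shape, with 43.0 and 41.6 CPM, then 92.7 and 97.1, then 39.6 and 52.6, and 25.2 and 22.9 at D14. Its D14 loss had an adjusted p of 0.11 in the authors' deposited DESeq2 results. The one at chr4:102628887-102629888 also rose at 24 h and fell at D14, with 42.7 and 44.5 CPM, then 82.1 and 76.4, then 56.6 and 47.2, and 21.5 and 25.6. Its controls did not overlap, with both D0 libraries above both acute DMSO libraries. Another region that rose and then fell, chr5:90278357-90279358, had the closest controls: 78.1 and 75.5 CPM in acute DMSO cells and 77.6 and 81.0 at D0. It reached 156 and 154 after 24 h and 37.1 and 47.2 at D14, a difference of -1.91 ± 0.18.

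At some other regions of the lower set 1 arm gave most of the difference. At chr5:10329045-10330046 the 24 h gain was 1.61 ± 0.12, from 32.5 and 35.5 CPM to 96.6 and 112. In the chronic arm the levels were 32.9 and 31.7 at D0 and 29.7 and 20.9 at D14, and that response was not called. At chr2:29174146-29175147 the level rose from 83.7 and 66.9 CPM to 226 and 206 after 24 h, while D0 stood at 92.7 and 99.3 and D14 at 61.6 and 77.6. At chr11:19629444-19630445, the named region without a JUNB site, the loss at D14 gave most of it. The level there was 70.6 and 60.8 CPM in acute DMSO cells, 90.6 and 90.8 after 24 h, 76.5 and 73.0 at D0, and 25.2 and 20.9 at D14. Both arms contributed at the remaining regions of the set. At chr1:160095596-160096597 the levels were 65.3 and 68.1, 115 and 124, 57.0 and 55.8, and 15.6 and 28.3 CPM in the same order. The responses there were 0.84 at 24 h and -1.34 at D14, a difference of -2.18 ± 0.22. The region at chr10:91964064-91965065 stood at 43.3 and 39.7, then 70.7 and 70.5, then 63.8 and 68.7, and 23.8 and 35.1 CPM, with responses of 0.77 and -1.15. Its D0 libraries lay well above acute DMSO, by 0.67, which lowers its D14 response. The 24 h gain at chr10:91964064-91965065 had an adjusted p of 0.081 in the authors' deposited DESeq2 results. That at chr11:19629444-19630445 had one of 0.38. In the same deposited results the D14 loss at chr2:29174146-29175147 had an adjusted p of 0.26. The D14 response at chr5:10329045-10330046 had one of 0.67.

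**Figure D4:**
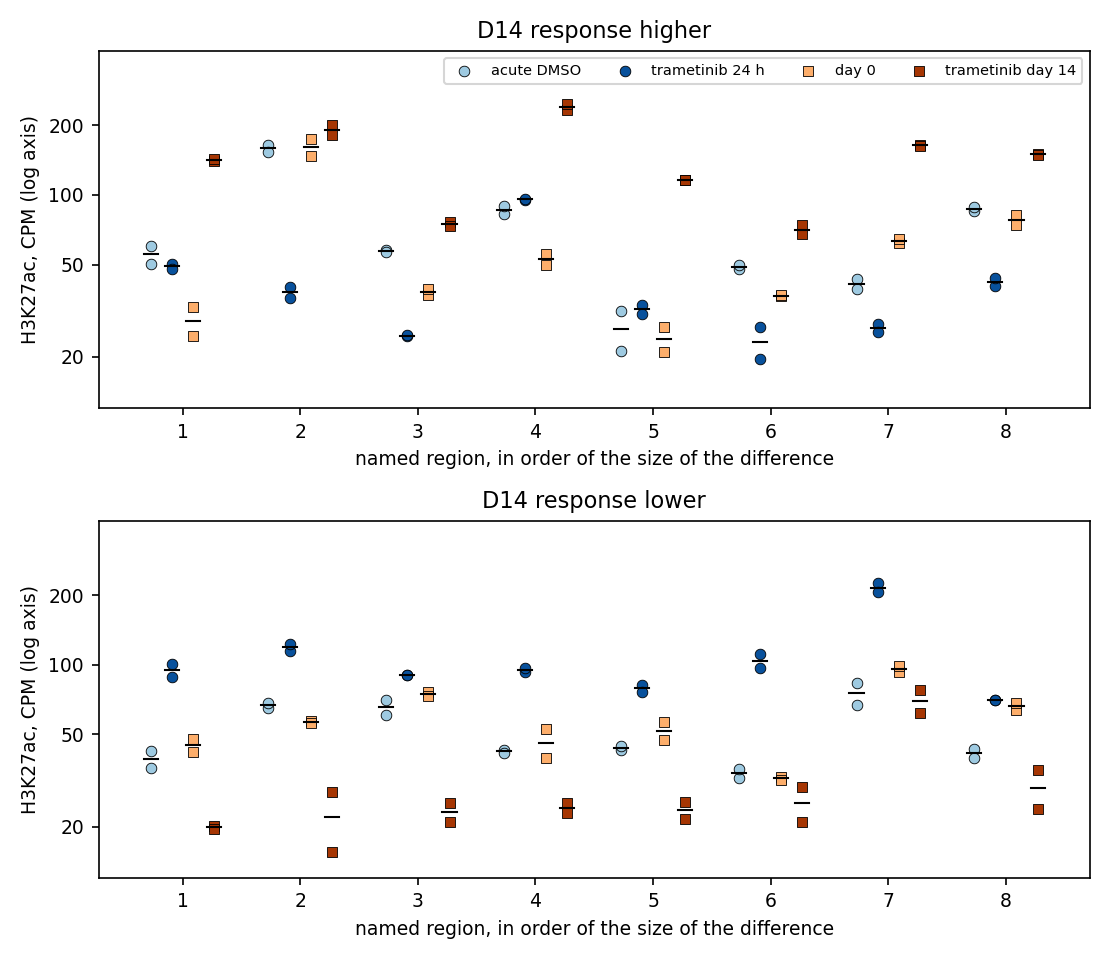
H3K27ac in CPM (log axis) at the 8 named regions with a higher D14 response (top) and the 8 with a lower one (bottom), in order of size; each point is 1 library and the short lines are group means. In the top panel the D14 libraries are the highest at every region, and in the bottom panel the 24 h libraries are the highest, with the D14 libraries the lowest at all but 1 region, the seventh, where 1 D14 library lies above 1 acute DMSO library.

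Some regions with large responses gave near equal values in both arms. At chr1:144940659-144941660 the level went from 120 and 116 CPM to 388 and 365 in the acute arm and from 117 and 113 to 367 and 360 in the chronic arm. The responses were 1.67 ± 0.08 and 1.66 ± 0.10, and the 95% interval of their difference ran from -0.27 to 0.24. The gains at chr8:103613052-103614053 were 1.78 and 1.71, those at chr14:80855234-80856235 were 1.73 and 1.65, and those at chr8:117670648-117671649 were 1.77 and 1.63. Among losses, chr11:34999069-35000070 went from 178 and 162 CPM to 48.3 and 38.4 in the acute arm and from 170 and 167 to 44.6 and 41.8 in the chronic arm, with responses of -1.97 and -1.96. At chr1:59228302-59229303 the level went from 215 and 213 CPM to 66.4 and 54.6 and from 248 and 224 to 75.0 and 54.6. The losses at chr12:89555767-89556768 were -1.87 and -1.80, and those at chr14:28777393-28778394 were -2.17 and -2.09.

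POS cells had the same 4 treatments, with 10 libraries, and 10250 of the regions were also matched in both POS tables. In a fit of all 18 libraries over these regions the difference was called at 2783 in NEG (27.2%) and at 6536 in POS (63.8%). The SD of the difference over these regions was 0.57 in NEG and 0.97 in POS. Differences of 2-fold or more were called higher at 487 and lower at 330 regions in NEG, against 1470 and 1651 in POS. The POS acute groups had 3 libraries each, and counts in these regions ran from 826875 to 2024796 a library in NEG and from 1150122 to 3159003 in POS. The part of depth and library number in the gap was not tested. The test of the NEG difference against the POS difference was called at 4822 regions (47%), 2299 with NEG higher (22.4%) and 2523 with NEG lower (24.6%). Of the 1347 regions with a higher D14 response in NEG (13.1%), 533 (39.6%) were also higher in POS, beside 33.6% of all 10250, and 329 (24.4%) were lower in POS, beside 30.1%. Of the 1436 with a lower D14 response in NEG (14%), 645 (44.9%) were lower in POS and 300 (20.9%) were higher. The difference in NEG exceeded that of POS in the same direction, by the direct test, at 655 (48.6%) of the first set and 627 (43.7%) of the second. Both sets were chosen on the NEG difference that enters this test.

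The classes set by NEG calls had these POS medians, in libraries that did not enter the NEG fit. Regions of the transient loss class had medians of -0.79 at 24 h and 0.05 at D14 in NEG over the 445 matched in all tables, and of -0.77 and -0.83 in POS. For the 145 losses turned into gains the NEG medians were -0.50 and 0.56, and the POS medians -0.44 and -0.59. For the 177 reduced losses they were -1.46 and -0.67 in NEG, and -1.61 and -1.77 in POS. The 24 h medians were near each other in these 3 classes and the D14 medians were not. NEG calls at 24 h, at D14 and of their difference chose the classes, so a gap at 24 h or at D14 can come from that choice. Other classes had the reverse. Reduced gains had 1.23 in NEG and 0.66 in POS at 24 h, and 0.55 and 0.66 at D14. Enlarged losses had -0.47 and -0.24 at 24 h, and -1.19 and -1.10 at D14. The direct test was called at 54.8% of the transient losses, 70.3% of the losses turned into gains and 59.3% of the reduced losses, beside 47% of all. The calls that chose these regions used the NEG side of this test, so nothing is read from these shares. Gains of the transient class had POS medians of 0.43 and 0.42 where NEG had 0.64 and -0.08. The delayed classes had POS medians at D14 of 0.35 for delayed gains and -0.33 for delayed losses, of the same sign as the 0.81 and -0.68 of NEG, on which they were chosen. The direct test was called at 52.0% and 48.5% of them. Losses shared by both NEG arms, at -0.78 and -0.78 over the 1247 matched, had POS medians of -0.71 at 24 h and -1.24 at D14.

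**Figure D5:**
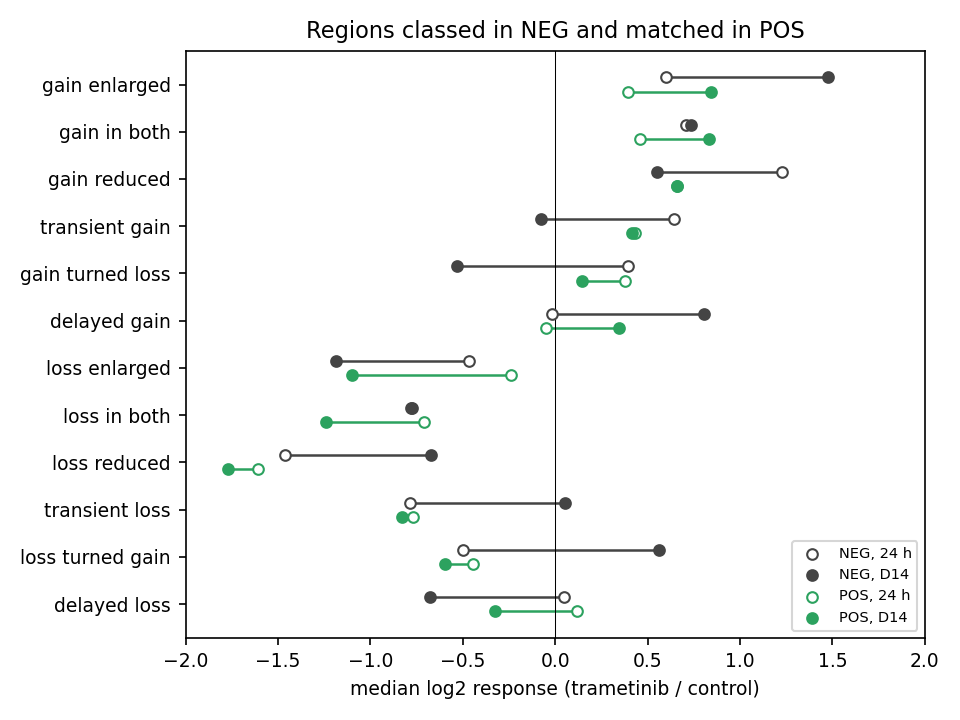
Median log2 response at 24 h (open circles) and at D14 (filled circles) in NEG (grey) and POS (green) for classes set by the calls in NEG, over the regions matched in all 4 tables. For transient losses, reduced losses and losses turned into gains the open circles of NEG and POS lie near each other while the filled circles lie apart. For reduced gains and enlarged losses the filled circles lie nearer each other than the open ones. The NEG calls set the classes, so the NEG circles are placed partly by that choice.

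Of the 16 regions named for the size of the NEG difference, 5 were also matched in POS. The NEG difference departed from that of POS at 4 of them, beside 47% of all 10250 regions. The 16 were chosen on the NEG difference that enters this test, so nothing is read from this count. At chr8:67383443-67384444 the POS responses were -0.26 at 24 h and -2.03 at D14, opposite to the delayed gain in NEG, and the difference between NEG and POS was 3.82 ± 0.32. At chr5:138180823-138181824, which fell at 24 h in NEG, POS rose in both arms, by 1.08 and 1.75, and NEG exceeded POS by 1.55 ± 0.26. The difference between the POS arms was itself called higher there, at 0.68. At chr22:27872112-27873113 POS had -1.78 at 24 h and -1.27 at D14, a POS difference called higher at 0.51, and NEG exceeded POS by 1.53 ± 0.32. At chr10:91964064-91965065 POS rose by 0.91 and 0.78 with no called difference between its arms, and NEG minus POS was -1.77 ± 0.27. The fifth, chr21:23908057-23909058, had POS responses of 0.85 and -0.78, the same order as in NEG, and NEG minus POS was -0.43 ± 0.36, with an adjusted p of 0.34 in the same edgeR test, adjusted by Benjamini-Hochberg. Likewise chr5:90278357-90279358 had 0.71 and -0.71 in POS, with NEG minus POS at -0.47 ± 0.26 and an adjusted p of 0.12 in the same edgeR test. At these last 2 regions a rise at 24 h and a fall at D14 was measured in both fractions.

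The regions with near equal responses in NEG had these values in POS where they were matched. At chr14:80855234-80856235, gained in both NEG arms, POS had -0.19 at 24 h and -1.21 at D14. At chr8:103613052-103614053 POS had 0.06 and 0.28, with neither the POS difference nor the test against NEG called. At the losses chr11:34999069-35000070, chr1:59228302-59229303 and chr14:28777393-28778394 POS lost more at D14 than at 24 h, with -1.26 and -2.93, -1.42 and -3.47, and -2.24 and -4.03. At chr12:89555767-89556768 POS lost less at D14, with -2.81 and -1.63. The direct test was called at all 4 of these losses, beside 47% of all regions, with NEG minus POS at 1.70 ± 0.29, 2.01 ± 0.32, 1.89 ± 0.37 and -1.08 ± 0.37. They were named for a NEG difference near 0, so these values mostly carry the POS difference.

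Along the genome the called regions were spread over all chromosomes analysed. The share with a higher D14 response ran from 6.41% on chromosome 13 (28 of 437 regions) to 19.5% on chromosome 5 (251 of 1287), and the share with a lower one from 12.1% on chromosome 13 to 18.1% on chromosome 8. Matched regions were sparse, and 22 clusters of 5 or more, with gaps of at most 12.5 kb, held 120 regions. In 1 of these clusters at least 80% of regions were called in 1 direction: at chr2:161247406-161286276, 4 of 5 regions had a higher D14 response, with a median difference of 0.44 and a range of 0.27 to 1.11. Its median response was -0.09 at 24 h and 0.53 at D14. No cluster met this rule in the lower direction. Of 410 neighbouring pairs of regions within that distance and both called, 365 (89.0%) were called in the same direction. Over all called regions 49.5% were called higher, and 3 of the 22 clusters held calls in both directions.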

How the data were processed

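H3K27ac ChIP-seq of 8 NEG libraries was used, with 10 POS H3K27ac and 4 JUNB libraries for comparison, out of 36 samples. The authors deposited raw read counts per window, with the windows' hg19 coordinates. Tools named in the submitters' processing notes are cutadapt 1.12, STAR 2.5.2b, featureCounts, MACS2 and DESeq2, with no order given. The authors' deposited log2 fold changes, p-values and adjusted p-values were not used in the tests. Counts of matched windows, overlapping by at least 50% each way, were fitted with edgeR 4.0.16 (4 group means, TMM factors over matched regions, filterByExpr with a minimum count of 10, quasi-likelihood test, Benjamini-Hochberg threshold 0.05). Windows of a pair differ in position by a median of 66 bases, and the arms were counted in separate tables, so levels across arms carry that offset. The matched comparison leaves out windows found in 1 table only. Input libraries were not used here.

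Total counts per table were 4711000 to 5179400 in the acute arm and 1861227 to 3617120 in the chronic arm, and their number limits the precision. The test of the difference was checked on simulated counts. It called 66% of 100 simulated differences of 2-fold and 94% of 100 of 4-fold, and 12 unchanged regions. Regions not called can thus hold a 2-fold difference. The simulation changed 200 regions alone, whereas 30.2% of regions were called in the data, so its shares need not hold there. Within groups, replicates differed by more than sampling noise (chi-square per degree of freedom 1.09 to 1.30) and none was counted as a copy. Named regions were called, at or above the median level, with the arms' 4 treated-minus-control differences apart and at least 1000000 bases between regions: the first 8 by size in each direction, with 4 of each kind of reversal (ranked by the smaller response) and 4 shared gains and 4 shared losses whose 95% interval of the difference lay within 0.5. Clusters and chromosomes were described without a test. The members and all rules were chosen with earlier results of these data known. Gene lists, cell type markers and sequences were not used here, since no annotation of hg19 was at hand. Alternatives were other scaling, filters, DESeq2 1.42.0, an overlap of 80%, a replicate block, leaving out each library, and thinning to equal depth, the last chosen after seeing the data. Columns of no sample in use numbered 0.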

Additional observations from a re-analysis of the deposited data

Results flagged for a closer look

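The difference between the D14 and 24 h responses in NEG cells was called by the test of the difference itself at each of the following named regions, on the log2 scale. It was 2.5 at chr4:106136736-106137737, 2.30 at chr2:68098514-68099515, 2.20 at chr5:138180823-138181824, 2.02 at chr16:11098666-11099667, 2.02 at chr8:67383443-67384444, 2.02 at chr22:27872112-27873113, 2.01 at chr5:156811275-156812276, 1.98 at chr8:97137740-97138741 and 1.96 at chr1:240473424-240474425. It was -2.44 at chr11:61311469-61312470, -2.18 at chr1:160095596-160096597, -2.17 at chr11:19629444-19630445, -2.08 at chr21:23908057-23909058, -2.01 at chr4:102628887-102629888, -1.98 at chr5:10329045-10330046, -1.97 at chr2:29174146-29175147, -1.92 at chr10:91964064-91965065 and -1.91 at chr5:90278357-90279358. At 4 of these regions the difference in NEG also departed from that in POS by the test over 18 libraries: by 1.55 at chr5:138180823-138181824, 3.82 at chr8:67383443-67384444, 1.53 at chr22:27872112-27873113 and -1.77 at chr10:91964064-91965065. This test was called at 47% of all 10250 regions matched in POS, and the NEG difference that named the regions enters it.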

How the results depend on the processing

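The differences at 18 named regions (298 recomputed values) and the single responses at the 8 shared gains and losses (268 values) all kept their direction and their side of the threshold; other values of the named regions were not recomputed. Regions whose windows overlap by less than 80% have no value under the stricter overlap. Among the regions named for a difference these are chr4:106136736-106137737, chr16:11098666-11099667, chr8:67383443-67384444, chr5:156811275-156812276, chr1:160095596-160096597, chr11:19629444-19630445, chr5:10329045-10330046 and chr1:240473424-240474425. Of the counts, 161 stayed within 1.5 times the reported one and 19 moved further. DESeq2 gave 2562 regions for the difference (1308 higher, 1254 lower), 4790 for D14 against 24 h trametinib, 158 for D0 against acute DMSO, 80 that fell and then rose and 148 that rose and then fell. With the factors of each full table, D0 against acute DMSO gave 4715 and rose then fell gave 268. The 80% overlap gave 246 for D0 against acute DMSO, over 14102 regions. Thinning to equal depth gave 1916 regions called lower for the difference, 483 for D0 against acute DMSO, 163 that fell then rose and 244 that rose then fell. Apart from the fewer regions at 80% overlap and the fewer reads after thinning, the cause was not tested.

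Leaving out 1 library at a time gave 4373 to 5142 regions for the difference (2263 to 2678 higher, 2048 to 2540 lower), 9270 to 10921 for the 24 h response, 7540 to 9489 for D14, 411 to 1231 for D0 against acute DMSO, 5634 to 7948 for D14 against 24 h trametinib, 188 to 252 that fell then rose, 281 to 394 that rose then fell and 4351 to 4890 for NEG against POS. The lone library left in a group is then assumed to vary like the others. Samples with the same replicate number did not deviate together (correlations 0.04 in the acute arm and -0.01 in the chronic arm). Replicates differed by little more than sampling noise, which could hide a shared shift, so this cannot exclude a pairing. With the replicate block 5949 regions were called for the difference, 823 for D0 against acute DMSO and 6530 for D14 against 24 h trametinib. Depth limits weak regions most.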
